A study of Mus musculus with 8 samples.

Results

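The 9 genes described here are clock output genes of the liver: the PAR bZIP transcription factors *Dbp*, *Tef* and *Hlf*, the bZIP repressor *Nfil3*, the basic helix-loop-helix repressors *Bhlhe40* and *Bhlhe41*, and the rhythmic genes *Ciart*, *Usp2* and *Wee1*. They were taken by symbol, through their Ensembl identifiers, from a table of 38283 genes, and all 9 were among the 11634 genes with an FPKM above 1 in at least 1 library. FPKM is the number of sequenced fragments scaled by transcript length and by the mapped fragments of the library. RNA was sequenced from the livers of 4 groups of male mice, with 2 libraries per group and the livers of 2 mice pooled in each library, so that each group stands for 4 mice. In RORα f/f mice, exons 4 and 5 of *Rora* are flanked by loxP sites and no Cre is present. RORα LKO mice carry the same floxed alleles with Cre under the albumin promoter, for a deletion of both exons that is specific to the liver. Liver cells in which this Cre is not active keep *Rora* intact. From 8 weeks of age the mice received a control diet (CD) or a high-fat diet (HFD) for 10 weeks. The groups are thus f/f CD, LKO CD, f/f HFD and LKO HFD. The time of day at which the livers were taken is not given in the sources used here, and with 1 sampling per group a change in level and a shift in phase cannot be told apart.

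As background, the core clock of the mouse is a feedback loop in which BMAL1 (encoded by *Arntl*) and CLOCK activate genes through E-boxes, among them the *Per* and *Cry* genes whose products inhibit them. A second loop acts on ROR elements, which RORα activates and the REV-ERB proteins (encoded by *Nr1d1* and *Nr1d2*) repress. Output genes carry the rhythm to metabolism: DBP, TEF and HLF activate detoxification genes through D-boxes, and NFIL3 (also E4BP4) competes for the same D-boxes as a repressor. BHLHE40 and BHLHE41 (DEC1 and DEC2) and CIART (CHRONO) repress transcription driven by BMAL1 and CLOCK. USP2 is a ubiquitin protease with strongly rhythmic expression in liver, and WEE1 is the kinase that inhibits CDK1 before mitosis.

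Promoter sequences are shown where they hold one of the clock motifs searched, because E-boxes and ROR elements are the sites through which the loops act. Windows from 250 bases before to 50 bases after a RefSeq start site (GRCm38.p6) were available for 7 of the 9 genes, 8 windows in all, with 2 for *Tef*; *Bhlhe40* and *Wee1* had none. Both strands were searched for the E-box CACGTG (in 7.15% of 32851 mouse windows of this length), the variant CACGTT (4.68%), the D-box as TTATGTAA or TTACGTAA (1.06%) and the ROR core as TAGGTCA or TGGGTCA (6.45%). Capitals mark the matches, which do not overlap one another. *Ciart* (chr3:95882179-95882478, minus strand) held 3 E-boxes, at -116, -58 and -44 from the start site. The *Tef* windows (chr15:81802423-81802722 and chr15:81811164-81811463, plus strand) held 1 each, at -127 and -138, and *Bhlhe41* (chr6:145865371-145865670, minus strand) held 1 at -153. *Nfil3* (chr13:52980990-52981289, minus strand) held a ROR core on the opposite strand, read here as TGACCTA, at -12. The windows of *Dbp*, *Hlf* and *Usp2* held none of the searched words, and no window of the 7 genes held CACGTT or a D-box. The only *Usp2* window (chr9:44084670-44084969, plus strand) lies inside the annotated gene (chr9:44067021-44095627). The sequence around the first annotated base of *Usp2* was therefore not searched.
Ciart: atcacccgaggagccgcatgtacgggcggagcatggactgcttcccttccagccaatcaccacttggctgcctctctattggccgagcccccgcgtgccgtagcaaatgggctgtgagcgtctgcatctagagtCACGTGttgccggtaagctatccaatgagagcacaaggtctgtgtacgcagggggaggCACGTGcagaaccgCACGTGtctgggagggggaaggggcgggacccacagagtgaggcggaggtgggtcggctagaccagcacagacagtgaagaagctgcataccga
Tef window 1: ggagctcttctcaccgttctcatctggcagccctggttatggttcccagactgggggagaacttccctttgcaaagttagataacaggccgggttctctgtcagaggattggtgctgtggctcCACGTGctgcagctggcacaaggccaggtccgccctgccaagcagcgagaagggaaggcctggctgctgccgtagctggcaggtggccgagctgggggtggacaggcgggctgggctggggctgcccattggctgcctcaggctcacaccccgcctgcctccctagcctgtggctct
Tef window 2: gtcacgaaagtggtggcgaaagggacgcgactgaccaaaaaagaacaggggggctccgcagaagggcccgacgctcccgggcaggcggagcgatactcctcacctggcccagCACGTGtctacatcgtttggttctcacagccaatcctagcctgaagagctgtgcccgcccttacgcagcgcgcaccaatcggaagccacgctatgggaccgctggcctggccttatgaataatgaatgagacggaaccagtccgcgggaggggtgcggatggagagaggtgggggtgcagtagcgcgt
Bhlhe41: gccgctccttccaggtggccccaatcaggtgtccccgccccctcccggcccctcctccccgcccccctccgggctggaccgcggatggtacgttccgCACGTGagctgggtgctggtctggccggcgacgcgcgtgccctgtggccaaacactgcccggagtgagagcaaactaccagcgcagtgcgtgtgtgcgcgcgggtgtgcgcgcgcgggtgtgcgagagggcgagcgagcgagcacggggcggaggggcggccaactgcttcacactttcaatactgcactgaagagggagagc
Nfil3: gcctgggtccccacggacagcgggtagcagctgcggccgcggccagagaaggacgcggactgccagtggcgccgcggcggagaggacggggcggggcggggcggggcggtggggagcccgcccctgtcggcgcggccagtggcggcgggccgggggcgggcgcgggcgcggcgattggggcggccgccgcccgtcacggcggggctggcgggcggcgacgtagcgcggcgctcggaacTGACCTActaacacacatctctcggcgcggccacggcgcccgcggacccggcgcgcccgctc

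The deleted gene was read first. *Rora* FPKM was 8.85 and 8.59 in f/f CD, 7.96 and 8.18 in LKO CD, 7.56 and 7.86 in f/f HFD, and 7.30 and 8.02 in LKO HFD. The value covers the whole gene, of which Cre removes only 2 exons, and it overlapped between genotypes on HFD. Libraries are therefore called f/f-labelled or LKO-labelled, since a genotype difference here depends on their labels. Each library had 10587 to 10706 genes above an FPKM of 1, and its 10 highest genes held 29.7% to 43.7% of its summed FPKM. The summed FPKM of 5 hepatocyte markers lay between 14087 and 16124 over the 8 libraries, whereas *Alb*, itself a defining marker, was listed at 0 in 4 libraries and was left out of that sum. Members of the sum differed. *Tat* ranged from 250 to 1036 FPKM and was lower in LKO on CD (log2 fold change -0.74, limma adjusted p = 0.22). It fell with HFD in f/f (-1.53, limma adjusted p = 0.027). *Cyp2e1* rose with HFD in f/f (0.67, limma adjusted p = 0.039) and in LKO (1.17, limma adjusted p = 0.0095). These normalized values exceed the change of its mean FPKM, from 4483 to 6253 in f/f and from 3989 to 6141 in LKO. Summed lymphocyte markers (0.636 to 1.64) and cholangiocyte markers (0.865 to 1.40) were low in all libraries.

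Fold changes are on the scale of quantile-normalized log2(FPKM + 1), where genes of low FPKM show smaller fold changes than their FPKM ratios. Among the genes of highest FPKM, such as *Cyp2e1*, normalization can make the fold change larger than the FPKM ratio. It can also turn the direction. The hepatocyte marker *Ttr* had FPKM of 4541 and 4322 in LKO CD and 4302 and 4200 in LKO HFD, with a log2 fold change of 0.35. The size of the *Cyp2e1* fold changes is therefore uncertain. The p-values are from limma with Benjamini-Hochberg adjustment over all 11634 genes. "Rose" and "fell" are used only for an adjusted p under 0.05. Replicates are different pools of 2 mice, so that the spread is between pools. On HFD, *Dbp*, *Tef*, *Ciart*, *Usp2*, *Wee1* and *Bhlhe40* were lower in both LKO-labelled libraries than in both f/f-labelled libraries, with log2 fold changes from -1.002 to -0.55, and *Hlf* and *Nfil3* overlapped between the genotypes. *Bhlhe41* was also lower, but its FPKM exceeded 1 in only 3 libraries, 2 of them f/f HFD, so it is counted apart. Of the other 8 genes, 6 had an unadjusted p under 0.05 and were lower, and 0 were higher. The background over all tested genes was 4.12% lower and 5.46% higher at that threshold, and 23% separated in the lower direction. The median log2 fold change of the 8 genes was -0.60, beside -0.001 for all tested genes. None passed after adjustment (lowest limma adjusted p = 0.14, for *Dbp*), where 5 of all genes (0.043%) did. In bulk tissue, fewer cells that express a gene and less RNA per cell cannot be told apart.

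**Figure D1:**
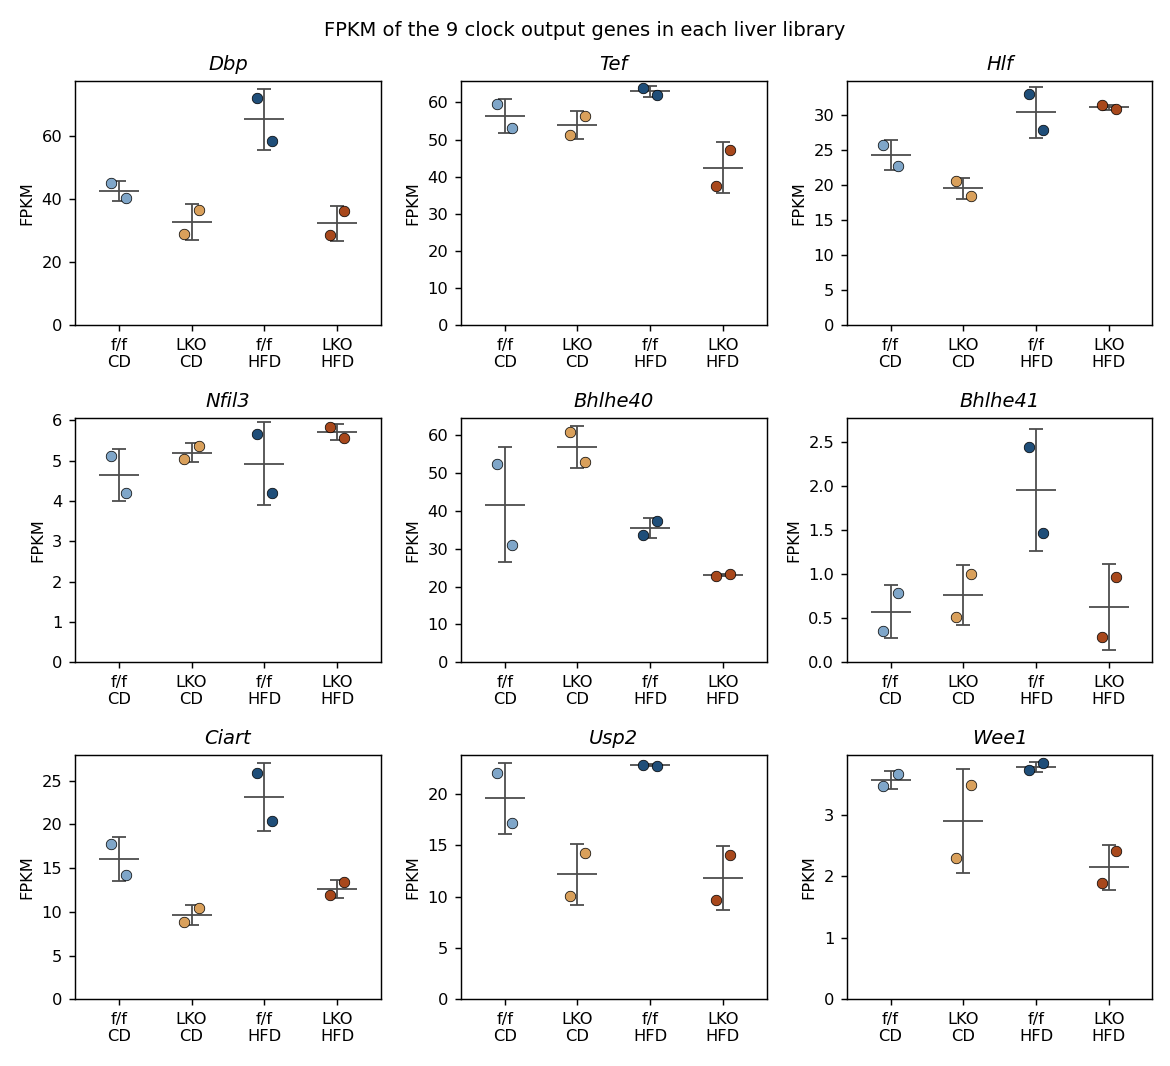
FPKM (vertical axes, from 0) of the 9 genes in each of the 8 libraries by group (horizontal axes); points are libraries, each a pool of 2 mice, horizontal lines are group means and bars are SD (n = 2). The f/f HFD points lie above the LKO HFD points for all genes except *Hlf* and *Nfil3*, and *Bhlhe40* is highest in LKO CD and lowest in LKO HFD.

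*Dbp* (ENSMUSG00000059824, chr7:45705088-45710203, plus strand), the PAR bZIP gene with the widest daily amplitude, had FPKM of 45.0 and 40.5 in f/f CD, 28.9 and 36.8 in LKO CD, 72.3 and 58.5 in f/f HFD, and 28.5 and 36.2 in LKO HFD. The f/f-labelled libraries lay above the LKO-labelled libraries on both diets, and the f/f HFD libraries were the highest of all. Mean FPKM on HFD was 32.4 ± 5.47 (SD, n = 2) in the LKO-labelled and 65.4 ± 9.77 (SD, n = 2) in the f/f-labelled group, a ratio of 0.495. The log2 fold change was -1.002 on HFD (95% confidence interval -1.38 to -0.63, limma adjusted p = 0.14) and -0.37 on CD (-0.75 to 0.01, limma adjusted p = 0.41). The effect on HFD was lower than that on CD by -0.63 (interval -1.16 to -0.10, limma adjusted p = 0.57). The exons of *Dbp* share 539 of 2993 bases with *Sphk2* on the opposite strand (14 to 23.2 FPKM), and the library kit does not mark strand, so that reads in that stretch could belong to either gene.

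*Tef* (ENSMUSG00000022389, chr15:81802421-81826863, plus strand), which encodes the PAR bZIP factor of highest FPKM here in the CD-fed groups, was separated between genotypes on HFD and overlapped on CD. Its FPKM was 59.7 and 53.2 in f/f CD, 51.1 and 56.5 in LKO CD, 63.9 and 62.0 in f/f HFD, and 37.6 and 47.2 in LKO HFD. On CD the values were close (log2 fold change -0.04, 95% confidence interval -0.31 to 0.22), and both LKO HFD libraries were the lowest of the 8 (-0.55 on HFD, interval -0.81 to -0.28, limma adjusted p = 0.23). *Hlf* (ENSMUSG00000003949, chr11:90336536-90390895, minus strand), the third PAR bZIP gene, had a different pattern from *Dbp*. Its FPKM was 25.7 and 22.7 in f/f CD, 20.5 and 18.5 in LKO CD, 32.9 and 27.8 in f/f HFD, and 31.3 and 30.8 in LKO HFD. The LKO-labelled libraries were lower on CD (log2 fold change -0.27, interval -0.51 to -0.04, limma adjusted p = 0.35) and lay within the range of the f/f-labelled libraries on HFD (0.06, interval -0.18 to 0.30, limma adjusted p = 0.88).

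The proportions of the 3 PAR bZIP genes were compared next. Because FPKM is scaled by length, the 3 levels can be added, and the sum was 130 and 116 FPKM in f/f CD, 101 and 112 in LKO CD, 169 and 148 in f/f HFD, and 97.4 and 114 in LKO HFD. *Dbp* made up 42.7% and 39.5% of the sum in f/f HFD and 29.2% and 31.7% in LKO HFD. *Hlf* made up 32.1% and 26.9% in LKO HFD and between 16.5% and 20.4% in the other 6 libraries. The share of *Hlf* thus stood apart in both LKO HFD libraries; these shares were not tested.

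**Figure D2:**
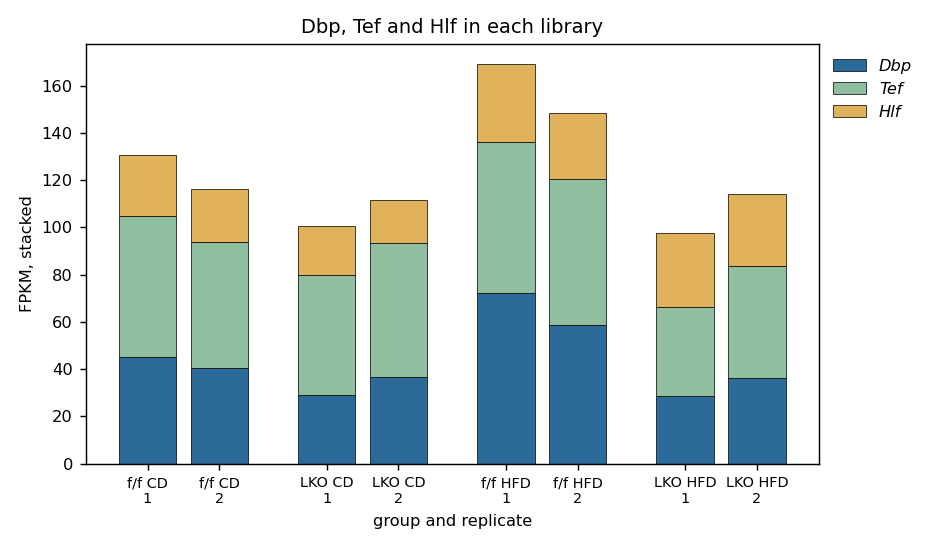
Stacked FPKM (vertical axis, from 0) of *Dbp*, *Tef* and *Hlf* in each of the 8 libraries (horizontal axis, by group and replicate). The *Dbp* segment is largest in the 2 f/f HFD libraries, and the *Hlf* segment keeps its height in the LKO HFD libraries while the *Dbp* and *Tef* segments are smaller than in f/f HFD.

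*Nfil3* (ENSMUSG00000056749, chr13:52967209-52981073, minus strand), the D-box repressor, had the narrowest range of the 9 genes, with its highest FPKM 1.39 times its lowest. Its FPKM was 5.11 and 4.1975 in f/f CD, 5.03 and 5.37 in LKO CD, 5.65 and 4.203 in f/f HFD, and 5.84 and 5.56 in LKO HFD. The genotypes overlapped on both diets, and their log2 difference was 0.19 on HFD (95% confidence interval -0.13 to 0.51, limma adjusted p = 0.70) and 0.14 on CD (-0.18 to 0.45, limma adjusted p = 0.71). The interval leaves room for a difference in either direction. The summed FPKM of the PAR bZIP activators was 29.9 and 35.3 times that of *Nfil3* in f/f HFD and 16.7 and 20.5 times in LKO HFD, with 25.6 and 27.7 in f/f CD and 20.0 and 20.8 in LKO CD. On both diets the ratio was lower in both LKO-labelled libraries, although *Nfil3* itself overlapped; the ratio was not tested.

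*Ciart* (ENSMUSG00000038550, chr3:95878503-95882251, minus strand), the gene with 3 E-boxes in its window, was lower in the LKO-labelled libraries on both diets. Its FPKM was 17.8 and 14.3 in f/f CD, 8.82 and 10.5 in LKO CD, 25.9 and 20.4 in f/f HFD, and 11.9 and 13.4 in LKO HFD. The log2 fold change was -0.79 on HFD (95% confidence interval -1.15 to -0.43, limma adjusted p = 0.23) and -0.65 on CD (-1.01 to -0.29, limma adjusted p = 0.21). The 2 effects differed by -0.14 (interval -0.64 to 0.37, limma adjusted p = 0.87). All 4 LKO-labelled libraries lay below all 4 f/f-labelled libraries.

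*Usp2* (ENSMUSG00000032010, chr9:44067021-44095627, plus strand) showed the same separation of all LKO-labelled from all f/f-labelled libraries. Its FPKM was 22.02 and 17.1 in f/f CD, 10.1 and 14.3 in LKO CD, 22.8 and 22.7 in f/f HFD, and 9.64 and 14.02 in LKO HFD. The log2 fold change was -0.89 on HFD (95% confidence interval -1.39 to -0.39, limma adjusted p = 0.27) and -0.63 on CD (-1.13 to -0.13, limma adjusted p = 0.32). *Wee1* (ENSMUSG00000031016, chr7:110122046-110143286, plus strand) had low FPKM, at 3.47 and 3.67 in f/f CD, 2.30 and 3.49 in LKO CD, 3.73 and 3.84 in f/f HFD, and 1.89 and 2.41 in LKO HFD. It was separated on HFD (log2 fold change -0.61, interval -0.998 to -0.228, limma adjusted p = 0.32) and overlapped on CD, where the LKO CD libraries differed by more than the groups (-0.26, interval -0.65 to 0.12). Of 10 cell cycle genes around the WEE1 kinase, such as *Cdk1* and *Ccnb1*, only 2 passed the FPKM filter and 0 had an unadjusted p under 0.05 in any comparison.

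*Bhlhe40* (ENSMUSG00000030103, chr6:108660629-108666925, plus strand), a repressor of BMAL1 and CLOCK, had genotype differences of opposite sign on the 2 diets. Its FPKM was 52.4 and 30.9 in f/f CD, 60.9 and 53.1 in LKO CD, 33.7 and 37.5 in f/f HFD, and 22.8 and 23.2 in LKO HFD. The LKO-labelled libraries were the higher on CD, by a margin smaller than the gap between the f/f CD libraries, and the lower on HFD. The log2 fold change was 0.50 on CD (95% confidence interval 0.0007 to 1.01, limma adjusted p = 0.41) and -0.59 on HFD (-1.10 to -0.09, limma adjusted p = 0.44). The CD value depended on which f/f CD library was used: it was 0.849 without replicate 1 and 0.153 without replicate 2. The difference between diets was -1.10 (interval -1.81 to -0.39, limma adjusted p = 0.56). Its paralog *Bhlhe41* (ENSMUSG00000030256, chr6:145858243-145865558, minus strand) was scarce, with FPKM of 0.359 and 0.783 in f/f CD, 0.519 and 1.01 in LKO CD, 2.44 and 1.46 in f/f HFD, and 0.285 and 0.968 in LKO HFD. Both f/f HFD libraries were the highest of the 8, and the log2 fold change between genotypes was -0.88 on HFD (interval -1.59 to -0.17, limma adjusted p = 0.41) and 0.15 on CD (-0.56 to 0.85). At these levels the value in each library rests on few fragments.

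On CD, 4 of the 8 genes without *Bhlhe41* had an unadjusted p under 0.05: *Ciart*, *Usp2* and *Hlf* were lower and *Bhlhe40* was higher. The background was 6.12% lower and 6.15% higher. The call of *Bhlhe40* was lost in 5 of the 8 other settings and with 7 of the 8 libraries left out in turn. *Dbp* was the other gene whose CD libraries were separated in the lower direction, a state that held for 22.6% of all genes (20.8% for the higher direction, that of *Bhlhe40*), and the median log2 fold change of the 8 genes was -0.27 beside -0.001 for all genes. None passed limma with adjustment (lowest adjusted p = 0.21), where 2 of all genes (0.0172%) did. Without LKO CD replicate 1, or without f/f CD replicate 1, only 2 of the 9 genes had an unadjusted p under 0.05 on CD. On HFD the count over the 9 genes, 7 with all libraries, was smaller without any one of the HFD libraries. It was smallest without LKO HFD replicate 1. That library had the lowest FPKM of its diet for *Dbp*, *Tef*, *Ciart*, *Usp2*, *Wee1*, *Bhlhe40* and *Bhlhe41*, the genes counted.

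**Figure D3:**
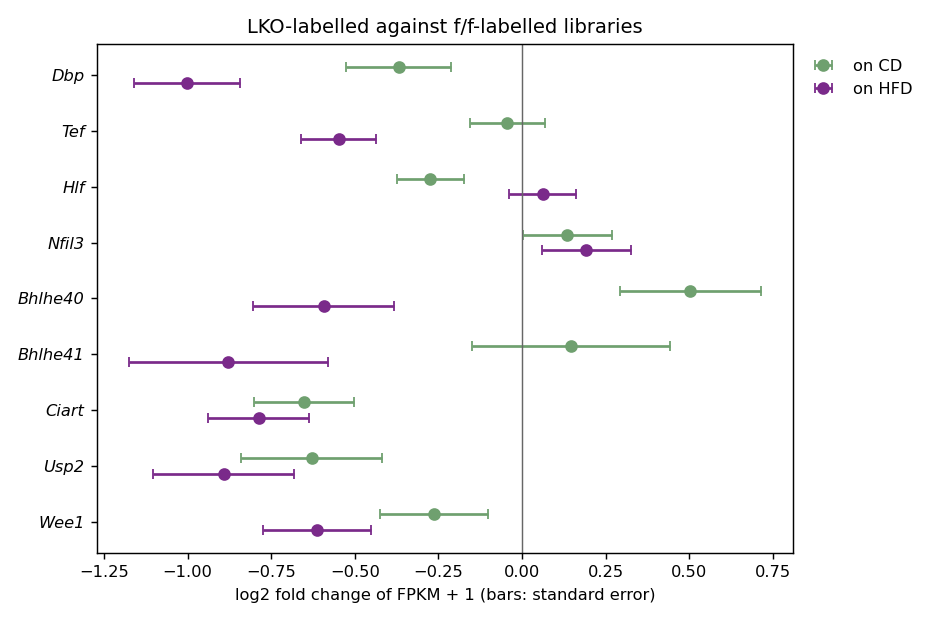
Log2 fold change of FPKM + 1 in LKO-labelled against f/f-labelled libraries (horizontal axis, negative is lower in LKO) for the 9 genes, on CD and on HFD; bars are standard errors from the fit of 8 libraries. *Dbp*, *Ciart* and *Usp2* lie left of 0 on both diets, and *Bhlhe40* lies on opposite sides of 0.

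The difference of the genotype effect between diets had an unadjusted p under 0.05 for *Dbp* (-0.63), *Tef* (-0.50) and *Bhlhe40* (-1.10). They were more negative on HFD and made 3 of the 8 genes without *Bhlhe41*, beside a background of 4.01% of all genes. *Bhlhe41* (-1.03), counted apart, also had an unadjusted p under 0.05 in that direction. None of the 9 genes passed limma with adjustment (lowest adjusted p = 0.56), where 4 of all genes (0.0344%) did. This count rests on single libraries. Over the 9 genes, the count in that direction was smaller without either f/f CD library or without LKO CD replicate 2. It was also smaller without f/f HFD replicate 1 or without LKO HFD replicate 1. With a library left out, the difference ranged from -0.79 to -0.47 for *Dbp*, from -0.67 to -0.35 for *Tef* and from -1.44 to -0.75 for *Bhlhe40*. Averaged over the diets, *Dbp* (-0.69), *Ciart* (-0.72), *Usp2* (-0.76), *Wee1* (-0.44) and *Tef* (-0.30) had an unadjusted p under 0.05 and were lower, beside a background of 6.3%. *Dbp*, *Ciart* and *Usp2* were separated on both diets in the lower direction, which 6.65% of all genes were. The lowest limma adjusted p was 0.083, for *Ciart*, and 12 of all genes (0.103%) passed. With genes required to exceed an FPKM of 1 in all 8 libraries, *Ciart* (limma adjusted p = 0.039) and *Dbp* (limma adjusted p = 0.046) passed. An exact two-sided permutation test of the genotype labels within diets, with 36 arrangements and a smallest possible p of 0.0556, gave that smallest p for *Dbp*, *Ciart*, *Usp2* and *Wee1*. This test used normalized values, while the FPKM of *Wee1* overlapped on CD, at 3.49 in an LKO-labelled and 3.47 in an f/f-labelled library. It gave an exact p of 0.111 for *Tef*, 0.222 for *Nfil3*, 0.333 for *Bhlhe41*, 0.389 for *Hlf* and 1 for *Bhlhe40*.

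Markers of other liver cells were read beside these differences. Summed FPKM of 5 macrophage markers (*Adgre1*, *Clec4f*, *Cd68*, *Marco* and *Vsig4*) was 37.9 to 46.2 in f/f HFD and 48.5 to 67.7 in LKO HFD, without overlap. All 5 had positive log2 fold changes on HFD, and 2 had an unadjusted p under 0.05 and were higher, beside 5.46% of all genes. None passed limma with adjustment (lowest adjusted p = 0.38). *Adgre1* and *Marco* overlapped between the genotypes. *Marco* was at 5.31 and 1.12 FPKM in f/f HFD and at 9.71 and 1.09 in LKO HFD. On CD the sum was 51.3 to 61.4 in the f/f-labelled and 50.2 to 52.0 in the LKO-labelled libraries. Summed stellate markers (4.01 to 6.55 FPKM over all libraries) and endothelial markers (13.8 to 23.1) overlapped between genotypes on both diets. The members of the stellate list differed in direction on HFD. *Acta2* was separated, at 1.09 and 1.51 FPKM in f/f and 0.543 and 0.405 in LKO (log2 fold change -0.63, limma adjusted p = 0.40). *Des* was also separated in the lower direction (-0.16), *Col1a1* was separated in the higher direction (0.17) and *Lrat* overlapped (0.003). The part of these cells in the differences was not tested.

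Diet was compared under each genotype label; these comparisons use the same libraries as the genotype comparisons and are not independent of them. In the LKO-labelled mice *Hlf* rose and *Bhlhe40* fell on HFD, the 2 calls among the 9 genes in any comparison; 3.02% of all genes (351) were called there. *Hlf* FPKM went from 19.5 ± 1.47 (SD, n = 2) to 31.0 ± 0.387 (SD, n = 2), 0.68 higher on the log2 scale (standard error 0.10, limma adjusted p = 0.027). *Bhlhe40* FPKM went from 57.0 ± 5.56 (SD, n = 2) to 23.0 ± 0.297 (SD, n = 2), a log2 difference of -1.23 (standard error 0.21, limma adjusted p = 0.036). Both calls were lost under several settings. Leaving out any 1 of the 4 LKO-labelled libraries ended both, with limma adjusted p from 0.069 to 0.14 for *Hlf* and from 0.12 to 0.18 for *Bhlhe40*. A fit of these 4 libraries alone gave adjusted p of 0.12 and 0.11, and a filter of FPKM above 0 gave 0.056 and 0.082. Without f/f CD replicate 1 or 2 the adjusted p of *Hlf* was 0.053 and 0.056, and without f/f HFD replicate 1 or 2 that of *Bhlhe40* was 0.076 and 0.072. The directions held in all of these fits.

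The remaining genes differed less between diets in the LKO-labelled mice. *Tef* was lower (log2 fold change -0.29, limma adjusted p = 0.20) and *Ciart* higher (0.39, limma adjusted p = 0.20), both separated and with an unadjusted p under 0.05. *Nfil3* was separated in the higher direction with 0.14 (95% confidence interval -0.18 to 0.46). Libraries overlapped for *Dbp* (0.01, interval -0.37 to 0.38), *Usp2* (-0.02, interval -0.52 to 0.48), *Wee1* (-0.26) and *Bhlhe41* (-0.12). In all, 2 genes were lower and 2 higher at an unadjusted p under 0.05, where the background was 9.69% and 11.7%. Libraries were separated for 2 genes in the lower direction, beside 30.2% of all genes, and for 3 in the higher direction, beside 22.9%. The median log2 fold change of the 8 genes without *Bhlhe41* was -0.01, beside 0.01 over all genes.

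In the f/f-labelled mice the genes were mostly higher on HFD. *Dbp* was 1.53 times its CD mean (log2 fold change 0.64, 95% confidence interval 0.27 to 1.02, limma adjusted p = 0.10), *Ciart* 1.44 times (0.53, interval 0.17 to 0.89, limma adjusted p = 0.14) and *Hlf* 1.25 times (0.34, interval 0.10 to 0.58, limma adjusted p = 0.14). These 3 of the 8 genes without *Bhlhe41* had an unadjusted p under 0.05 in the higher direction, beside 9.94% of all genes. *Tef*, *Usp2* and *Wee1* were also separated in that direction, making 6 of 8 beside 22.3% of all genes, with log2 fold changes of 0.21, 0.24 and 0.09. *Bhlhe41* was higher too (0.91, interval 0.20 to 1.62, limma adjusted p = 0.18), and *Nfil3* (0.09) and *Bhlhe40* (-0.13) overlapped. None of the 9 genes passed limma with adjustment, where 1.33% of all genes (155) did, and without f/f HFD replicate 1 only 1 of the 9 had an unadjusted p under 0.05. Adipocyte markers summed to 6.45 to 7.78 FPKM on CD and 8.90 to 10.4 on HFD over both genotype labels, nearly all of it *Fabp4*, with *Adipoq*, *Plin1* and *Lep* at or near 0. Endothelial markers summed to 14.8 to 18.0 in f/f CD and 21.6 to 22.2 in f/f HFD. The macrophage sum was 51.3 to 61.4 in f/f CD and 37.9 to 46.2 in f/f HFD, without overlap, with negative log2 fold changes for all 5 markers. Of these, *Adgre1* and *Marco* overlapped between the diets. For *Marco* (-0.06) the mean FPKM was higher on HFD, at 3.21 beside 2.85 on CD. The part of these cells in the diet differences was not tested.

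**Figure D4:**
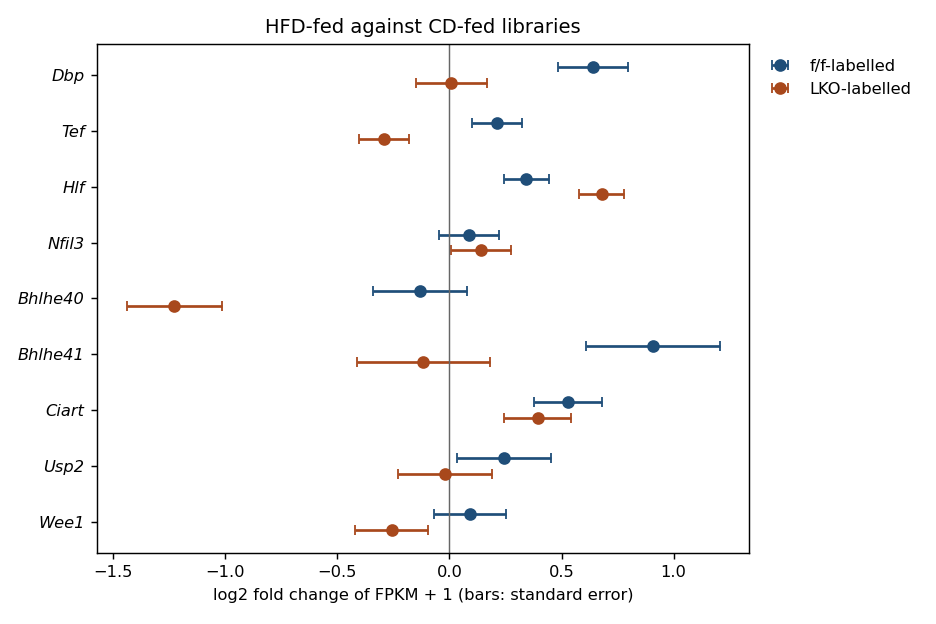
Log2 fold change of FPKM + 1 between HFD-fed and CD-fed libraries (horizontal axis, positive is higher on HFD) for the 9 genes, by genotype label; bars are standard errors from the fit of 8 libraries. *Hlf* and *Bhlhe40* in the LKO-labelled mice lie farthest from 0 relative to their errors, and *Tef* lies on opposite sides of 0 in the 2 genotypes.

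The order of the replicates was also compared over the 9 genes. Replicate 2 exceeded replicate 1 for 7 of the 9 genes in LKO CD and for 7 of the 9 in LKO HFD, and for 2 of the 9 in f/f CD and in f/f HFD. Over all tested genes the share was 49.7%, 56.2%, 49.1% and 45.8% in the same order. This order was not tested.

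The genes with a profile over the 8 libraries most like that of *Dbp* were ranked by the root mean square difference of log2 profiles after centring each gene on its mean. The 5 nearest of the tested genes were *Fkbp5* (0.150), *Ciart* (0.157), *Usp2* (0.185), *Rdh16f2* (0.194, a member of a multigene family whose reads may be shared) and *Ccnf* (0.222), where the spread of *Dbp* around its own mean was 0.433. *Fkbp5*, which encodes a co-chaperone of steroid receptors, had FPKM of 21.2 and 23.8 in f/f CD, 13.8 and 14.2 in LKO CD, 38.8 and 30.8 in f/f HFD, and 13.1 and 19.3 in LKO HFD. Among the other genes of the set, *Bhlhe41* stood at rank 13, *Wee1* at 29 and *Tef* at 39, whereas *Hlf* (2869), *Nfil3* (7743) and *Bhlhe40* (10947) were far from *Dbp*. The nearest to *Nfil3* were *Akip1*, *Evi5*, *Cluh*, *Sp100* and *2310015A10Rik*, with differences from 0.058 to 0.070, beside a spread of *Nfil3* around its own mean of 0.146. These ranks describe 8 libraries that share 4 groups.

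The upstream loops were read from a list of 18 core clock genes, of which 16 were tested; *Npas2* and *Rorb* did not pass the FPKM filter. On HFD, 4 were lower and 1 higher in the LKO-labelled libraries at an unadjusted p under 0.05 (4.12% and 5.46% of all genes), and 0 passed limma with adjustment (0.043% of all genes). The median log2 fold change of the list was -0.12. The lower genes were *Per2* (log2 fold change -0.57), *Per3* (-0.78), *Cry1* (-0.50) and *Nr1d2* (-0.36). *Clock*, the partner of BMAL1, was the higher gene (0.40), with FPKM of 6.28 and 5.58 in f/f HFD and 8.32 and 7.75 in LKO HFD. On CD, *Per1* (-0.45) and *Per2* (-0.27) were lower, beside 6.12% of all genes, and the median was -0.06.

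*Arntl*, a target of RORα through ROR elements, was scarce at this sampling, with FPKM of 0.587 and 0.535 in f/f CD, 0.456 and 0.219 in LKO CD, 1.13 and 0.745 in f/f HFD, and 1.93 and 0.611 in LKO HFD. The LKO HFD libraries differed more than the groups (log2 fold change 0.17 on HFD, 95% confidence interval -0.48 to 0.82). *Npas2*, a paralog of *Clock*, was at 0.642 FPKM or below in every library. *Nr1d1*, the REV-ERBα gene, overlapped between genotypes on HFD (0.13, interval -0.21 to 0.47) and rose with HFD under both labels. Its FPKM was 28.1 and 26.5 in f/f CD, 23.7 and 23.8 in LKO CD, 65.6 and 48.3 in f/f HFD, and 55.5 and 64.0 in LKO HFD, with log2 fold changes for diet of 1.05 (limma adjusted p = 0.037) in f/f and 1.35 (limma adjusted p = 0.018) in LKO. *Nr1d1* overlaps *Thra* on the opposite strand, so that reads in the shared stretch could belong to either. For *Dbp* the diet values were 0.64 in f/f and 0.01 in LKO.

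**Figure D5:**
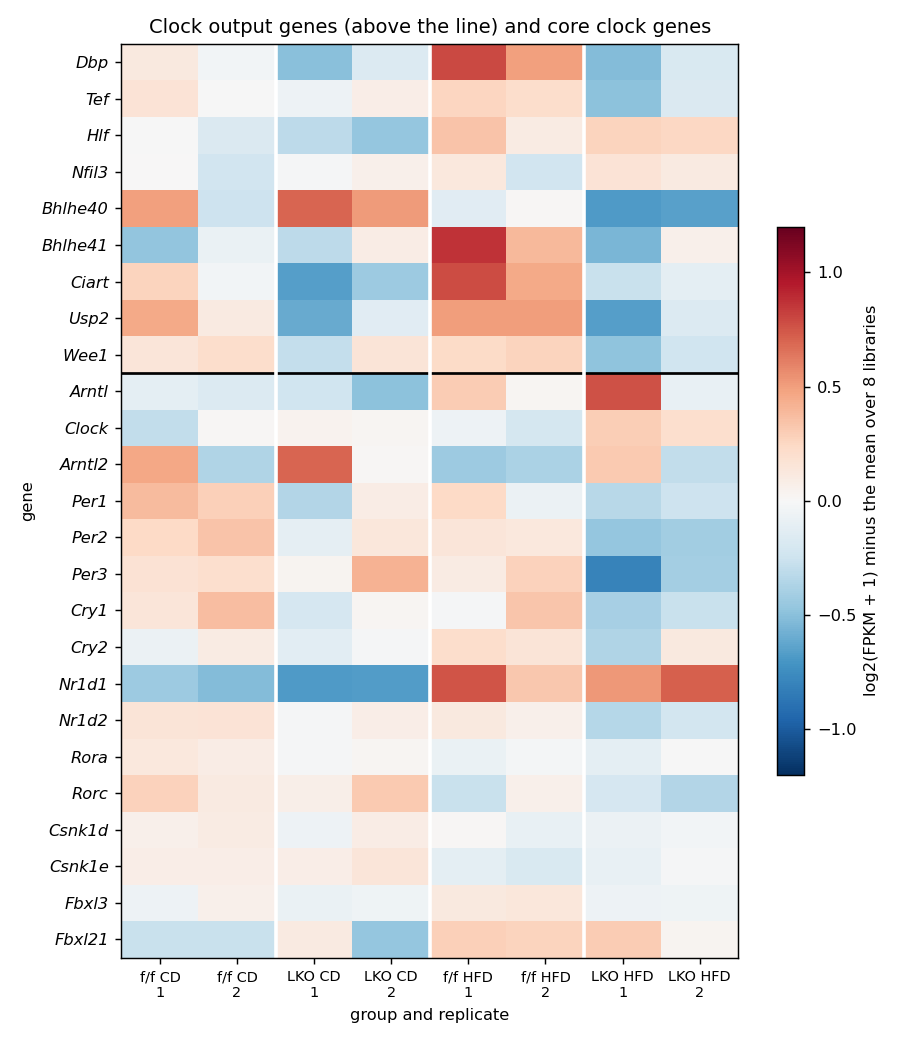
Log2(FPKM + 1) of each gene minus its mean over the 8 libraries (colour scale) for the 9 clock output genes above the line and the 16 tested core clock genes below it; columns are libraries by group and replicate. *Dbp*, *Ciart* and *Usp2* share a pattern of high f/f HFD and low LKO columns, and *Nr1d1* separates the diets under both genotype labels.

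Genes known to be regulated by the PAR bZIP factors were read from a list of 8, of which 7 were tested; *Cyp2a4* did not pass the filter. On HFD, *Por*, the electron donor of the microsomal cytochromes P450, and *Cyp7a1*, the rate-limiting enzyme of bile acid synthesis, were lower in the LKO-labelled libraries at an unadjusted p under 0.05, with log2 fold changes of -0.63 and -0.94, which made 2 of 7 beside 4.12% of all genes. *Por* FPKM was 212 and 231 in f/f HFD and 131 and 149 in LKO HFD. On CD, *Cyp7a1* (-1.23), *Cyp2b10* (-0.76), *Nr1i3* (-0.41) and *Cyp2a5* (-0.50) were lower at that threshold, 4 of 7 beside 6.12% of all genes. The *Cyp2a* and *Cyp2b* genes belong to multigene families whose near-identical copies can share reads, so that their values are uncertain. The list's median was -0.05 on HFD and -0.50 on CD, whereas the median of the 3 PAR bZIP genes was -0.55 on HFD and -0.27 on CD. None of the 7 passed limma with adjustment between genotypes on either diet (lowest adjusted p = 0.27 on HFD and 0.20 on CD).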

How the data were processed

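Liver RNA of 8 libraries was measured, 2 for each group of genotype and diet. Per the labels, the authors trimmed reads with cutadapt 1.0, aligned them to GRCm38 with TopHat2 2.0.7 and estimated FPKM with Cufflinks. The deposited FPKM values hold no counts, so that tests on counts, and intervals from counting, were not made. The depth behind a value is unknown here, and precision is limited most for genes of low FPKM.

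Symbols came from GENCODE M21 (GRCm38), which named 36341 of 38283 identifiers. Genes above an FPKM of 1 in at least 1 library were kept, and log2(FPKM + 1) was quantile normalized, as in the study's methods. The study's test pooled over permuted samples was not rerun. limma 3.58.1 (R 4.3.3) fitted the 4 groups once with a mean-variance trend (4 residual and 2.8 prior degrees of freedom), and p-values were adjusted over 11634 genes in each of 6 comparisons. With 2 libraries against 2, an exact permutation test cannot give a p below 0.333. A run of the fit on simulated data was also made, and no result given here rests on it. Figures were drawn with matplotlib 3.10.9.

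The genes, lists and comparisons were chosen with earlier results of these data known. Values are named for the 9 genes and *Rora*, for core clock and PAR bZIP target genes separated between genotypes with an unadjusted p under 0.05 on 1 diet (and *Arntl*, *Clock*, *Npas2* and *Nr1d1*), and for the 5 genes nearest to *Dbp* and to *Nfil3*. Alternatives were no normalization, median centring, a pseudocount of 0.1, filters of FPKM above 0 in at least 1 library or above 1 in all 8, the replicate block, no trend, a fit of the compared libraries alone, and each library left out. No 2 libraries had identical values.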

Additional observations from a re-analysis of the deposited data

Results flagged for a closer look

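*Tef* is listed because its diet differences had opposite signs under the 2 genotype labels: both f/f HFD libraries lay above both f/f CD libraries, and both LKO HFD libraries lay below both LKO CD libraries. The difference of the diet effects, LKO minus f/f, was -0.50 on the log2 scale (95% confidence interval -0.88 to -0.13, limma unadjusted p = 0.016, adjusted p = 0.558), so that it did not pass after adjustment.

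*Bhlhe40* is listed because the genotype labels separated in opposite directions on the 2 diets, higher in LKO on CD and lower in LKO on HFD. On CD the nearest libraries of the genotypes were at 53.1 and 52.4 FPKM, and the log2 fold change there went from 0.50 to 0.153 without f/f CD replicate 2. The difference of the genotype effects, HFD minus CD, was -1.10 on the log2 scale (95% confidence interval -1.81 to -0.39, limma unadjusted p = 0.0084, adjusted p = 0.558), which did not pass after adjustment either.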

How the results depend on the processing

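The calls of *Hlf* and *Bhlhe40* between diets in LKO were 2 of the 9 genes by limma adjusted p. They were 0 with FPKM above 0 in at least 1 library and in a fit of the libraries of the comparison alone, 1 without the trend, and between 0 and 1 with a library left out. Averaged over diets the count by adjusted p was 0, and 2 with FPKM above 1 in all 8 libraries, a filter that drops *Bhlhe41*. The counts that follow are over the 9 genes and take either direction. At an unadjusted p under 0.05, leaving out a library gave 4 to 7 genes on HFD (7 with all libraries), 2 to 4 on CD (4), 1 to 6 for the difference between diets (4), 1 to 5 for diet in f/f (4), 2 to 3 for diet in LKO (4) and 5 to 6 for the average (5). Beyond the libraries left out, 393 fold changes of single genes kept their direction and side of an unadjusted p of 0.05, 9 lost that threshold, 5 reached it, and 1 turned its direction: *Dbp* between diets in LKO, -0.0187 without normalization. With a library left out, 353 kept both, 45 lost the threshold, 14 reached it and 20 turned their direction. The log2 fold changes then ranged, for diet in LKO, from -0.15 to 0.17 for *Dbp*, from -0.26 to 0.22 for *Usp2* and from -0.43 to 0.21 for *Bhlhe41*. For diet in f/f they ranged from -0.48 to 0.22 for *Bhlhe40* and from -0.0756 to 0.25 for *Nfil3*. On CD they ranged from -0.11 to 0.0189 for *Tef* and from -0.0745 to 0.38 for *Bhlhe41*, and on HFD from -0.044 to 0.17 for *Hlf*. For the difference between diets they ranged from -0.30 to 0.026 for *Ciart* and from -0.10 to 0.22 for *Nfil3*, and for the average from -0.22 to 0.13 for *Bhlhe40*. The cause was not tested.

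Over all genes, the number with an adjusted p under 0.05 ranged over the alternatives from 0 to 570 for diet in LKO (351), 5 to 323 for diet in f/f (155), 4 to 24 on HFD (5), 0 to 19 on CD (2), 0 to 21 for the difference (4) and 7 to 50 for the average (12). The replicate numbers do not pair the libraries, since same-numbered pools come from different mice and the correlation of their deviations was -0.0037 to 0.149 over 6 pairs of groups. With the replicate block, both calls stayed (limma adjusted p = 0.023 for *Hlf* and 0.0495 for *Bhlhe40*). The count over the 9 genes at an unadjusted p under 0.05, in either direction, was 5 in place of 4 for the difference between diets. Under the block, 223 of all genes passed for diet in LKO, 34 for diet in f/f, 7 on HFD, 2 on CD, 3 for the difference and 9 for the average. FPKM without counts limits what can be said of *Bhlhe41*, *Arntl* and *Wee1*.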
